A study of Oryza sativa with 6 samples.

Results

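The MYBS genes MYBS1, MYBS2 and MYBS3 encode rice transcription factors with a single MYB repeat, and they were read here in shoot tips of an *OsRDR1* mutant and its sibling wild type. Probe sets of the Affymetrix Rice Genome Array were taken as members if their only gene carries one of these 3 names in the array's annotation or in a table of rice genes. This gave 6 probe sets of the 57258 tested, 1 for MYBS1, 3 for MYBS2 and 2 for MYBS3, and all 6 are reported, since no filter on low values was applied.

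Both genotypes are of the japonica variety Hitomebore. *Osrdr1* is homozygous for an insertion of the retrotransposon *Tos17* in the second exon of *OsRDR1*, which encodes an RNA-dependent RNA polymerase, and sibling WT plants without the insertion segregated from the same selfed heterozygous line, so the mutant rests on 1 insertion line. The labels name no other treatment for either genotype. Seeds were kept dark in water at 28 °C for 2 days, and the seedlings were then moved to 26 °C under greenhouse days (16 h light, 8 h dark) for roughly 48 h. RNA of 3 *Osrdr1* and 3 WT samples, labelled as biological replicates, was hybridized to 1 array each.

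The MYBS factors are known for the response of cereal cells to sugar. They bind the TATCCA element in promoters of alpha-amylase genes, which encode the enzymes that break down starch in the germinating seed. In rice, MYBS1 activates these promoters when sugar runs short and acts downstream of the kinase SnRK1A, MYBS2 competes with MYBS1 for the element and is bound by 14-3-3 proteins, and MYBS3 represses them and also acts in the response to cold.

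The values are log2 signals from RMA, which makes the same probe set comparable between arrays but not 1 probe set with another. Values on all arrays ran from 2.97 to 14.71, with array medians between 4.87 and 4.97. Detection calls were not used, so a value near or below these medians cannot be told from background. WT replicate 2 stood apart from the rest. On it 53 probe sets exceeded every other array by more than 2 log2 units, while each of the other 5 arrays had 0 such probe sets. The shoot tip markers were mixed, with the Rubisco small subunit OsrbcS between 13.04 and 13.79 on all arrays and the meristem gene OSH1 between 3.71 and 8.28 on its brighter probe set.

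One probe set of each MYBS gene lay higher in all *Osrdr1* arrays than in all WT arrays, and those of MYBS1 and MYBS2 passed the test. In each gene this was the brightest probe set. The differences were modest, at 1.57-fold for MYBS1, 1.43-fold for MYBS2 and 1.33-fold for MYBS3. The other 2 probe sets of MYBS2 and the other 1 of MYBS3 overlapped between the genotypes.

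MYBS1, the activator, was read by Os.15338.1.S1_a_at alone. Its log2 signals were 8.34, 8.21 and 8.21 in *Osrdr1* replicates 1, 2 and 3, and 7.81, 7.59 and 7.41 in WT replicates 1, 2 and 3. The lowest *Osrdr1* array lay 0.39 above the highest WT array, and the WT arrays were more spread than the *Osrdr1* arrays (SD 0.20 against 0.08, n = 3 each). MYBS1 rose in *Osrdr1* by 0.65 on the log2 scale (standard error 0.11, 95% interval 0.38 to 0.92, limma adjusted p = 0.04, with Benjamini-Hochberg adjustment over all probe sets). Of all tested probe sets, 98.7% had a lower log2 fold change.

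MYBS2, the competitor of MYBS1, was read by 3 probe sets that gave different results. On its brightest, Os.3141.1.S1_at, the log2 signals were 9.76, 9.83 and 9.74 in *Osrdr1* and 9.21, 9.32 and 9.26 in WT. Both groups were narrow (SD 0.05 each, n = 3) and stood 0.42 apart. This probe set rose in *Osrdr1* by 0.51 on the log2 scale (standard error 0.07, 95% interval 0.34 to 0.68, limma adjusted p = 0.0229), the lowest p among the members. On Os.3141.2.S1_at the signals were 6.17, 5.01 and 5.46 in *Osrdr1* and 5.40, 5.21 and 4.91 in WT. *Osrdr1* replicate 1 was the highest array and *Osrdr1* replicate 2 lay below 2 of the 3 WT arrays, so the groups overlapped. The log2 fold change was 0.37 with a 95% interval from -0.28 to 1.03 (limma adjusted p = 0.639), an interval wide enough to hold the value of the brightest probe set. Some of its signals lie near the array medians, where background cannot be told apart. On Os.52485.1.S1_at the signals were 6.43, 6.13 and 6.34 in *Osrdr1* and 6.50, 6.23 and 6.28 in WT. The means were nearly level, with a log2 fold change of -0.03 and a 95% interval from -0.29 to 0.23 (limma adjusted p = 0.937), which does not reach the 0.51 of the brightest probe set.

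MYBS3, the repressor, was read by 2 probe sets. On Os.9166.1.S1_a_at the log2 signals were 9.29, 9.45 and 9.31 in *Osrdr1* and 8.89, 8.87 and 9.03 in WT. All *Osrdr1* arrays lay above all WT arrays, by 0.25 at the closest. The log2 fold change was 0.42 (standard error 0.09, 95% interval 0.21 to 0.62), but it missed the threshold (limma adjusted p = 0.0613). On Os.48721.1.S1_at the signals were 7.64, 7.58 and 7.56 in *Osrdr1* and 7.74, 7.69 and 7.52 in WT. The groups overlapped and the log2 fold change was -0.05, with a 95% interval from -0.25 to 0.15 (limma adjusted p = 0.851).

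**Figure D1:**
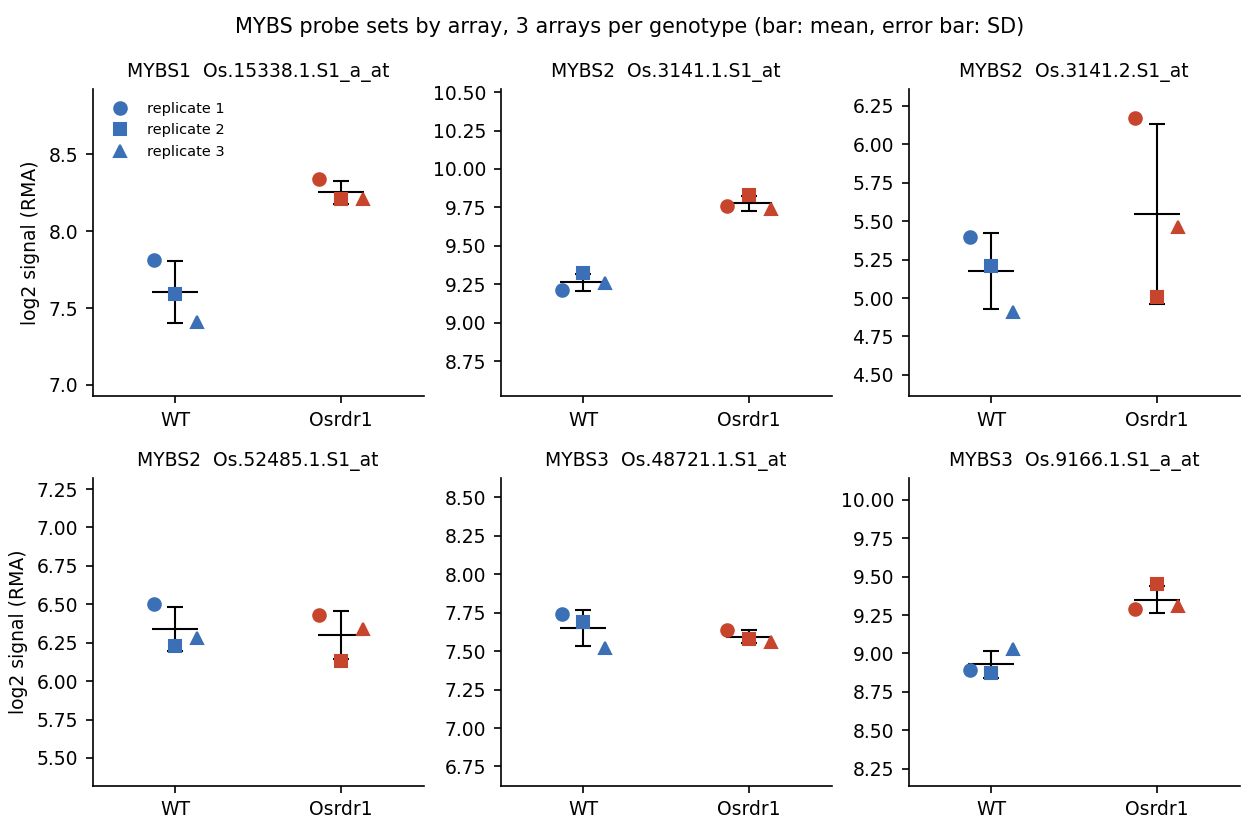
Log2 RMA signal of the 6 MYBS probe sets on each array, WT in blue and *Osrdr1* in red, with the marker shape giving the replicate number, the horizontal bar the mean and the error bar the SD of 3 arrays; every panel spans 2 log2 units. The genotypes stand apart on 3 panels (MYBS1, MYBS2 Os.3141.1.S1_at and MYBS3 Os.9166.1.S1_a_at) and overlap on the other 3.

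Thus 2 of the 6 probe sets were called higher and 0 lower, where 1.57% of all probe sets were called higher, 0.506% lower and 2.08% in either direction. All *Osrdr1* arrays lay above all WT arrays on 3 of the 6, where 10% of all probe sets were ordered in this way and 8.83% in the opposite way. Counted by gene on the brightest probe set, 2 of 3 were called higher, where 3.44% of 17905 genes were called higher and 1.13% lower, and 3 of 3 were ordered with *Osrdr1* above WT, where 19.4% of genes were. The shares among genes cover only probe sets with 1 gene and, of those, the brightest of each gene, as for the 3 MYBS genes here.

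The size of the MYBS1 and MYBS2 differences moved little when an array was left out, but most of the calls were lost. With each array left out in turn, the log2 fold change of MYBS1 ran from 0.55 to 0.75 and its adjusted p from 0.0514 to 0.169 in limma, so it was called in 0 of 6 such fits. For MYBS2 on its brightest probe set the log2 fold change ran from 0.49 to 0.54 and the adjusted p from 0.0363 to 0.116 in limma, and it was called only without WT replicate 3. Among all probe sets, 901 were called higher and 290 lower with the 6 arrays. The higher and lower calls were 0 and 0 without *Osrdr1* replicate 1 or *Osrdr1* replicate 3, and 801 and 419 without WT replicate 3. Without WT replicate 2, the array that stands apart, the log2 fold change was 0.64 for MYBS1 (limma adjusted p = 0.131), 0.54 for MYBS2 (limma adjusted p = 0.0722) and 0.39 for MYBS3 on Os.9166.1.S1_a_at (limma adjusted p = 0.187).

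**Figure D2:**
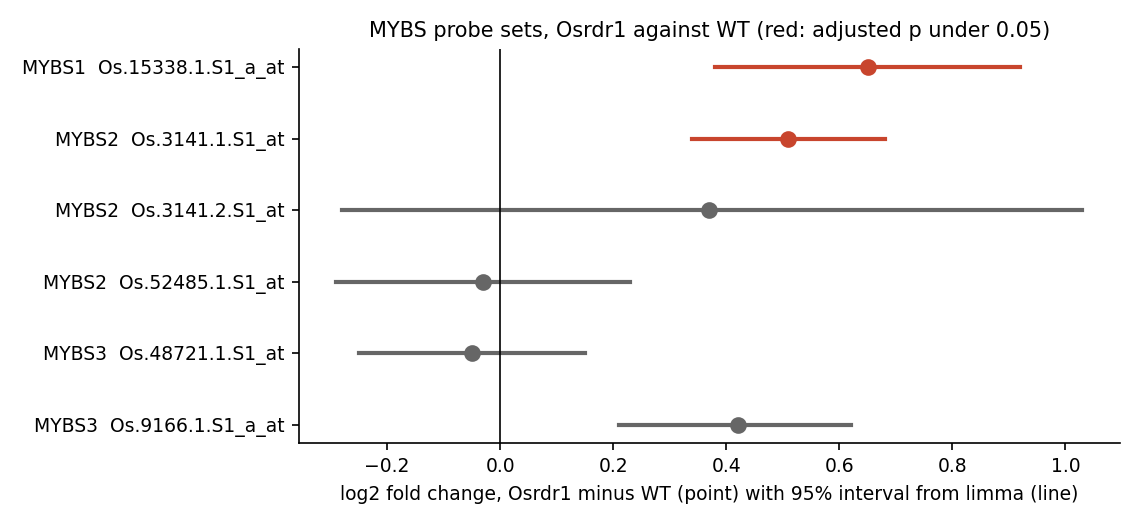
Log2 fold change of *Osrdr1* minus WT for the 6 MYBS probe sets, with the 95% interval from limma as a line and the called probe sets in red. The intervals of MYBS1, MYBS2 Os.3141.1.S1_at and MYBS3 Os.9166.1.S1_a_at lie above 0, and the other 3 include 0.

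Probe sets of the same gene were then compared within each array, so that the difference between their genotype effects could be tested over arrays. With 3 arrays against 3, the exact permutation test has 20 regroupings and cannot go below p = 0.1. In MYBS3, Os.9166.1.S1_a_at stood above Os.48721.1.S1_at by 1.75 ± 0.12 in *Osrdr1* and by 1.28 ± 0.20 in WT (SD, n = 3 each), so the effects differed by 0.47 on the log2 scale. The groups of differences did not overlap, and the two-sided exact permutation p was 0.1, the smallest possible (adjusted p = 0.35 over 7 pairs). In MYBS2, Os.3141.1.S1_at and Os.52485.1.S1_at differed in effect by 0.55 with groups that did not overlap (exact permutation p = 0.1, adjusted p = 0.35). The other 2 pairs of MYBS2 probe sets overlapped, with differences in effect of 0.14 (exact permutation p = 0.9, adjusted p = 0.9) and 0.41 (exact permutation p = 0.3, adjusted p = 0.42). Probe sets of one gene can bind different transcript forms, and which part of the gene each one reads was not examined here.

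The genes were compared with each other on their brightest probe sets in the same way. The effect of MYBS1 was larger than that of MYBS2 by 0.14 (exact permutation p = 0.5, adjusted p = 0.583) and than that of MYBS3 by 0.23 (exact permutation p = 0.3, adjusted p = 0.42), and the effect of MYBS2 was larger than that of MYBS3 by 0.10 (exact permutation p = 0.3, adjusted p = 0.42). All 3 pairs overlapped between the genotypes. With 1 array left out in turn, these differences ran from 0.04 to 0.26, from 0.09 to 0.36 and from 0.04 to 0.16. An exact permutation test that cannot go below p = 0.1 does not show that the 3 effects were alike, and the miss of MYBS3 beside the calls of MYBS1 and MYBS2 does not show a smaller effect.

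Over the 6 arrays, the 3 brightest probe sets followed each other, which with groups this far apart mostly restates the difference between genotypes. Pearson's r was 0.90 between MYBS1 and MYBS2, 0.80 between MYBS1 and MYBS3, and 0.95 between MYBS2 and MYBS3. Among the WT arrays MYBS1 was highest in replicate 1, MYBS2 in replicate 2 and MYBS3 in replicate 3, so the genes did not keep 1 order within the genotype.

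MYBS2 and MYBS3 lie close together on chromosome 10, with 5 genes between them in the gene order of the table, while MYBS1 lies on chromosome 1. Of these 5 genes 4 had a probe set, and 0 of the 4 were called, where 4.57% of all genes were. With 4 genes, 0 calls is close to that share. HOX1, a homeodomain-leucine zipper gene, had 9.75 ± 0.21 in *Osrdr1* and 9.53 ± 0.19 in WT (SD, n = 3 each) with a log2 fold change of 0.21 (limma adjusted p = 0.582). The gene LOC4349389, which carries no name in these tables, had a log2 fold change of 0.20 and *Osrdr1* arrays above WT arrays by 0.04 (limma adjusted p = 0.341), and the remaining 2 had 0.17 and 0.05. The measured genes between thus had log2 fold changes smaller than the 0.42 and 0.51 on the brightest probe sets of MYBS3 and MYBS2. Of the other probe sets of MYBS2 and MYBS3, Os.3141.2.S1_at had 0.37. Os.52485.1.S1_at and Os.48721.1.S1_at, at -0.03 and -0.05, lay below the genes between. These differences were not tested.

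Alpha-amylase genes, whose promoters MYBS factors bind, were dim on nearly all arrays. Of 5 such genes with a probe set, all 5 had a mean over the arrays below 4.91, the median over all probe sets. By limma 0 of the 5 were called in either direction, where the share over the 17905 genes was 4.57%. Before adjustment 0 of the 5 had p under 0.05 by limma, beside a share of 27.7% over the same genes. A list of 5 genes is too small to tell a count of 0 from either share. The median log2 fold change was -0.04, against 0 over all genes. AMY3D, the amylase induced by sugar starvation, had 3.98, 4.03 and 4.29 in *Osrdr1* and 3.93, 3.90 and 4.16 in WT, read on the brighter of its 2 probe sets. AMY3E, its neighbour on chromosome 8, ran from 4.06 to 4.51 in *Osrdr1* and from 3.95 to 4.22 in WT. AMY3A ran from 3.63 to 4.0 in *Osrdr1* and from 3.81 to 3.91 in WT, and AMY2A from 3.93 to 4.19 and from 3.97 to 4.16. None of these 4 genes is known to be above background on any array, so a difference in their level was not detectable here.

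AMY1A, a major amylase of the germinating seed that gibberellin induces, was high on a single array. Its log2 signal was 10.45 in WT replicate 2, against 3.73 and 3.60 in WT replicates 1 and 3 and 3.33, 3.55 and 3.58 in *Osrdr1*. Among all probe sets it had the largest excess of WT replicate 2 over the next array, at 6.72. The log2 fold change of -2.44 (limma adjusted p = 0.607) rests on this array and is -0.18 without it (limma adjusted p = 0.617). MYBS1 had 7.59 on the same array, between the 7.81 and 7.41 of the other WT arrays, MYBS2 had 9.32 against 9.21 and 9.26, and MYBS3 had 8.87 against 8.89 and 9.03. The MYBS genes thus did not follow AMY1A on that array.

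Of 6 genes of low oxygen, under which the SnRK1A and MYBS1 pathway is known to work in germinating rice, all but PDC3 were also highest on WT replicate 2. The list was taken because an earlier analysis had shown this array to stand apart in these genes. Their order is thus a description set by the choice of list. PDC1, a pyruvate decarboxylase of fermentation, had 8.55 there and 3.74 to 4.13 on the other 5 arrays. The alcohol dehydrogenase gene Adh2 reached 9.36 there, and its other arrays ran from 6.23 to 7.40. The haemoglobin gene NSHB1 had 12.43 there and 10.32 to 11.13 elsewhere on its brightest probe set. By genotype, 0 of the 6 low-oxygen genes were called by limma, where 4.57% of all genes were called. At an unadjusted p under 0.05, 0 were higher and 1 lower, beside 16.4% and 11.3% of all genes. The 1 lower gene was PDC2, another pyruvate decarboxylase, at -0.30 (limma adjusted p = 0.168).

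**Figure D3:**
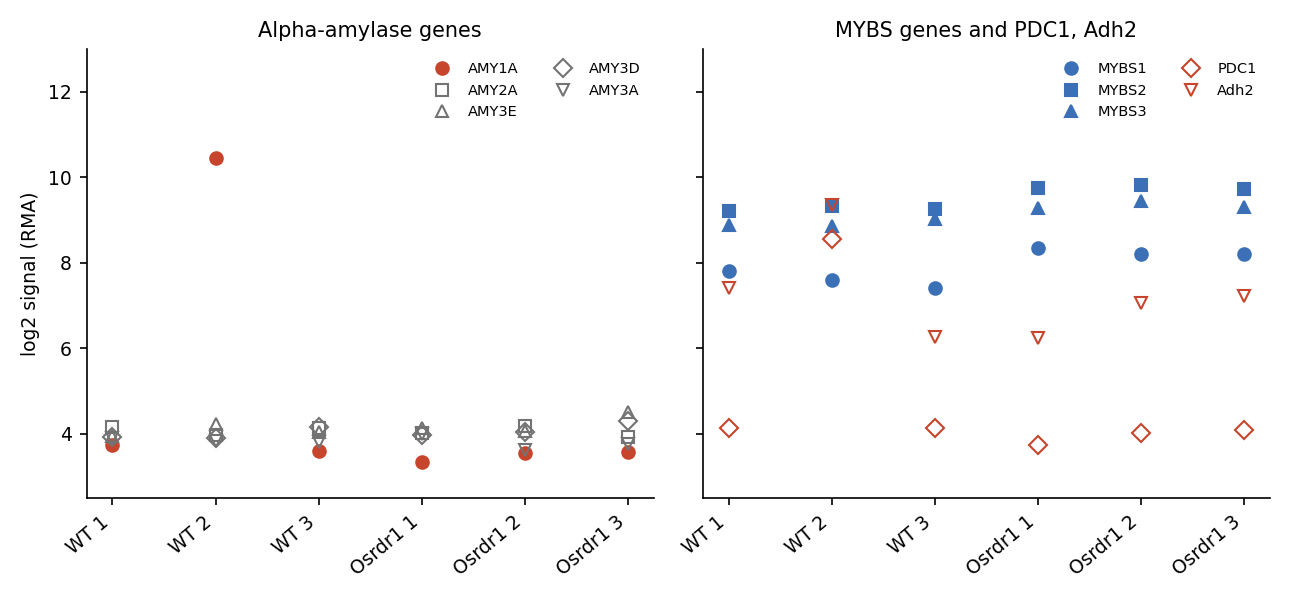
Log2 RMA signal on each of the 6 arrays for the 5 alpha-amylase genes (left; AMY1A filled red) and for the 3 MYBS genes in filled blue with PDC1 and Adh2 in open red (right), each on its brightest probe set. AMY1A and PDC1 leave their level near 4 only on WT replicate 2, where the MYBS genes stay near their values on the other WT arrays.

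Among the sugar signalling genes around the MYBS factors, no call was made. Of 24 (SnRK1 kinases, hexokinases, trehalose-phosphate phosphatases and 14-3-3 proteins), 0 were called by limma and 24 did not pass, with 1 higher and 2 lower at an unadjusted p under 0.05 and a median log2 fold change of -0.02. Among all genes 4.57% were called in either direction and 27.7% were at an unadjusted p under 0.05 (16.4% with a higher and 11.3% with a lower signal in *Osrdr1*). SnRK1A, the kinase upstream of MYBS1, had signals of 10.83, 10.75 and 10.82 in *Osrdr1* and of 10.91, 10.93 and 10.80 in WT on the brighter of its 2 probe sets. The groups overlapped, and the log2 fold change was -0.08 (95% interval -0.25 to 0.09, limma adjusted p = 0.719). Of the 3 genes with the smallest p, the hexokinase HXK6, a sugar sensor, had a log2 fold change of 0.20 (limma adjusted p = 0.232) and the 14-3-3 gene GF14G had -0.36 (limma adjusted p = 0.204). A hexokinase that the table lists as both HXK4 and HXK8 had -0.96 (limma adjusted p = 0.302), with 7.70 in WT replicate 2 against 5.97 and 6.69 in the other WT arrays, and -0.51 without that array. The trehalose-phosphate phosphatase TPP7, named after its value was seen, had 0.55, with 6.58, 6.28 and 7.08 in *Osrdr1* and 5.93, 6.52 and 5.82 in WT, which overlapped (limma adjusted p = 0.375).

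Genes of sugar transport and sucrose cleavage showed 1 call among 31, a share near the 4.57% among all genes. SWEET1B, of the SWEET family of sugar transporters, rose in *Osrdr1*, with signals of 5.71, 5.81 and 5.76 against 5.17, 5.36 and 4.95 in WT and a log2 fold change of 0.60 (limma adjusted p = 0.0486). The WT signals lie near the array medians, so the fold is against a level that may be background. SWEET1B was called in 0 of the 6 fits with an array left out, where its log2 fold change ran from 0.49 to 0.70. The sucrose synthase SUS5 had 0.53 (limma adjusted p = 0.0516) and the cell wall invertase CIN2 had -0.46 (limma adjusted p = 0.0616), each with genotypes that did not overlap. At an unadjusted p under 0.05 there were 11 higher and 2 lower of the 31, beside the 16.4% and 11.3% of all genes, and the median of the list was 0.07, against 0 over all genes.

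The genes of cold, of gibberellin and of other MYB factors gave 0 calls by limma, where 4.57% of all genes were called. In lists this small, 0 calls is close to that share. Of 10 cold response genes 1 was higher at an unadjusted p under 0.05, where 16.4% of all genes were. It was the MYB factor MYB4, at 0.52 (limma adjusted p = 0.254). TPP2, a trehalose-phosphate phosphatase, had 0.42 (limma adjusted p = 0.356), and 0.21 without WT replicate 3. DREB1A, a cold regulator of the pathway that MYBS3 represses, had 4.17 ± 0.06 in *Osrdr1* and 4.51 ± 0.34 in WT (SD, n = 3 each), near background, and a log2 fold change of -0.34 (limma adjusted p = 0.426), and -0.14 without WT replicate 1. Of 9 regulators in the gibberellin branch of amylase control, 2 were higher at an unadjusted p under 0.05, near the 16.4% of all genes, the receptor GID1 at 0.34 (limma adjusted p = 0.111) and the MYB factor GAMYB at 0.24 (limma adjusted p = 0.288). The repressor WRKY71 had 0.63 (limma adjusted p = 0.408), and 0.32 without *Osrdr1* replicate 2. Of 8 other named MYB factors, which include GAMYB and MYB4, 4 were higher and 1 lower at an unadjusted p under 0.05. Among all genes these shares were 16.4% and 11.3%. The clock gene LHY had 0.43 (limma adjusted p = 0.0787) and MYBAS2 had -0.57 (limma adjusted p = 0.164). These 8 are a chosen list, and 0 calls among 8 is close to the 4.57% of all genes. MYB4, LHY and MPH1 (0.38, limma adjusted p = 0.0891) had log2 fold changes of like size to those of the MYBS genes. That of MYBAS2 was of like size in the other direction. No test of a difference between the MYBS genes and these 8 was run.

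**Figure D4:**
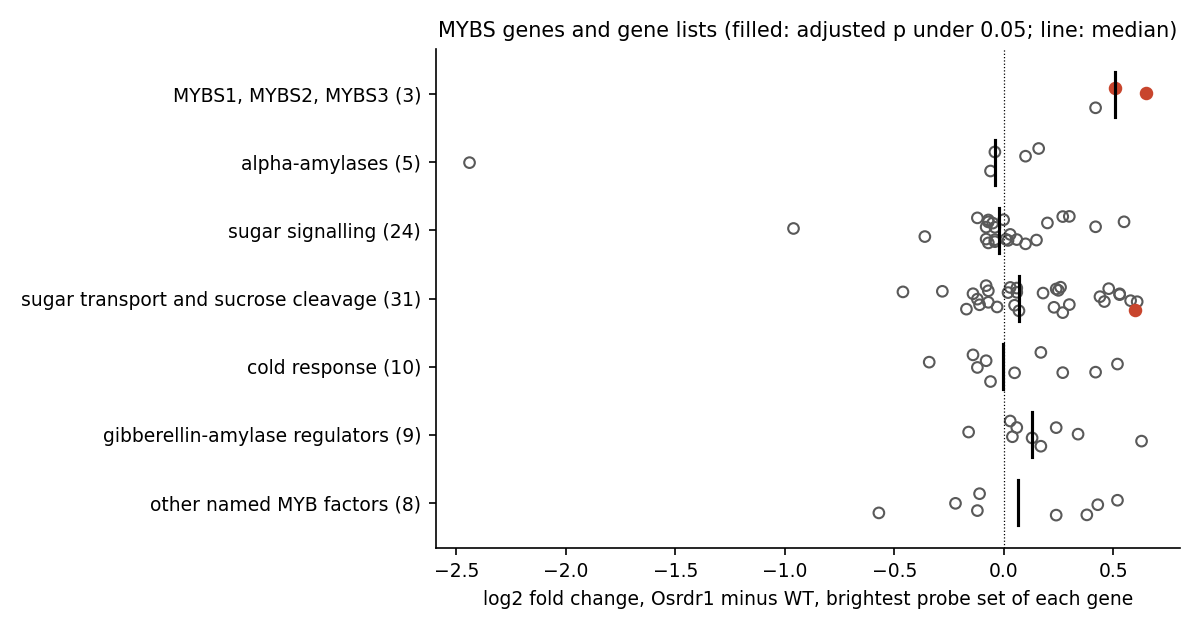
Log2 fold change of *Osrdr1* minus WT on the brightest probe set of each gene, for the 3 MYBS genes and 6 gene lists with the number of genes in parentheses; filled points were called at an adjusted p under 0.05 by limma and the vertical line is the median of the list. The MYBS genes lie between 0.42 and 0.65, the list medians between -0.04 and 0.13, and AMY1A at -2.44 rests on WT replicate 2.

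Named genes with a pattern most like that of each MYBS probe set were picked by correlation. Of 2529 named probe sets with a mean at or above the median, the highest Pearson's r over the 6 arrays with MYBS1 were those of PDS, the phytoene desaturase of carotenoid synthesis (0.995, log2 fold change 0.39), of arf1, an auxin response factor (0.995, 0.30), and of a ceramidase gene (0.988, 0.38). For MYBS2 on its brightest probe set they were LFNR1, a leaf ferredoxin-NADP reductase (0.998, log2 fold change 0.77, limma adjusted p = 0.0115), BURP2 (0.997, 0.13) and TPT, the triose phosphate translocator that exports sugar phosphate from the chloroplast (0.997, log2 fold change 0.45, limma adjusted p = 0.0333). For MYBS3 on Os.9166.1.S1_a_at they were THF1, a thylakoid formation gene (0.996, 0.37), the expansin-like EXLA1 (0.996, 0.42) and the chalcone isomerase Cfi (0.994, 0.40). The 6 arrays share the genotype contrast and many probe sets were searched, so these values are a description.
The genes closest to the MYBS probe sets that overlapped between genotypes were not called. They were picked for following probe sets with little difference between genotypes, so this was largely set by the choice. Of the genes closest to the other MYBS probe sets, only LFNR1 and TPT were called, where 4.57% of all genes were. These genes were picked for following probe sets on which the genotypes stood apart, a choice that favours calls. Os.52485.1.S1_at of MYBS2 was closest to ARF24 (0.975), CR4 (0.961) and PRMT6.2 (0.961), and Os.48721.1.S1_at of MYBS3 to GW2 (0.976), RTEL1 (0.976) and BSL2 (0.971), with log2 fold changes from -0.24 to -0.02. Os.3141.2.S1_at of MYBS2 was closest to MADS58 (0.969), H2B.5 (0.956) and PCF5 (0.949), with log2 fold changes from 0.04 to 0.15.

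Some markers of tissue parts differed between the genotypes, and most did not pass the test. Of 6 shoot tip markers 1 was called higher and 1 lower by limma. Among all genes 3.44% were called higher and 1.13% lower. OsrbcS had a log2 fold change of 0.52 (limma adjusted p = 0.0412), and the meristem gene OSH71 had -2.43 (limma adjusted p = 0.0457), while OSH1 had -2.48 on its brighter probe set (limma adjusted p = 0.162). In all, 3 of the 6 had positive and 3 negative log2 fold changes, with a median of -0.37. The 3 negative ones were the meristem genes OSH1, OSH71 and OSH6 (-0.78, limma adjusted p = 0.101). On its other probe set OSH1 had -1.83 (limma adjusted p = 0.0617). The 3 positive ones were OsrbcS, the chlorophyll-binding protein gene CAB2R (0.24, limma adjusted p = 0.235) and RBCS1, near background, at 0.05. The summed signal of the list ran from 30600 to 31300 in *Osrdr1* and from 22300 to 25700 in WT, and it is made up almost wholly of OsrbcS and the chlorophyll-binding protein gene CAB2R, not of the meristem genes. Of 2 root markers 1 was called higher, where 3.44% of all genes were. It was Lsi1, a silicon transporter of the root, with a log2 fold change of 0.80 (limma adjusted p = 0.00853). Lsi1 had 9.44 to 9.47 in *Osrdr1* and 8.63 to 8.67 in WT, while the other, Lsi2, stayed between 3.89 and 4.09. The summed signal of the 2 root markers thus ran from 710 to 726 against 413 to 426. Of 8 endosperm markers 1 was called higher, GLUA2 with a log2 fold change of 0.70 on its brighter probe set. Its other probe set, near background, had -0.11 (limma adjusted p = 0.641). Of the 8, 2 had positive and 6 negative log2 fold changes, with a median of -0.01. The summed signal, mostly that of the globulin GLB1 (10.56 to 10.83 on the log2 scale), ran from 1860 to 2080 in *Osrdr1* and from 1780 to 1900 in WT. In such bulk tissue a different share of cells and a different amount of RNA per cell cannot be told apart, and the part of these shifts in the MYBS result was not tested.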

How the data were processed

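Gene expression was measured in shoot tips with 1 Affymetrix Rice Genome Array per sample, 3 per genotype. The table of 57381 probe sets that the authors deposited holds log2 signals from RMA in Affymetrix Expression Console, whose version no source used here gives. RMA assumes a like distribution of signal on all arrays, so a shift shared by most genes would not show. Every value column is 1 of these 6 samples.

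After 123 AFFX control probe sets were left out, 57258 entered a limma fit (version 3.58.1, R 4.3.3, with lmFit and eBayes) on genotype alone. P-values were adjusted over all of them by Benjamini-Hochberg, and 0.05 was the threshold for a call, whatever the fold. The paper names no test for its array calls. Gene names came from the platform's annotation and a RefSeq gene table of assembly ASM3414082v1, used for names and gene order only; 22436 have 1 gene. A gene in a list was read on its brightest probe set. Two-sided exact permutation tests compared effects within arrays (Python 3.11.15, scipy 1.17.1), 4 pairs within genes and 3 between genes, the latter chosen after seeing the data. The fit was tested on simulated data.

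The members and lists were chosen with earlier results of these data known. Named are all MYBS probe sets, all measured amylases, the genes called in each list or else the 3 with the smallest p, and the 3 named genes most like each probe set; SnRK1A, NSHB1 and the neighbours on chromosome 10 were added after their values were seen. A gene listed as both GF14E and GID2 was left out. *OsRDR1* itself was not analysed here, as no probe set was matched to it, so the genotype labels were not checked against the disrupted gene. Precision is limited by the 3 arrays per genotype. The p-values of limma set the difference between genotypes against the spread between these samples, with variances partly drawn from all probe sets. Alternatives concerned scaling, normalization, dim probe sets, the variance model, array weights, a fold minimum, a replicate block and the choice of arrays.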

Additional observations from a re-analysis of the deposited data

How the results depend on the processing

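The direction of MYBS1, of MYBS2 on Os.3141.1.S1_at and of MYBS3 on Os.9166.1.S1_a_at was positive under every alternative. Of the 6 MYBS probe sets, 2 were called as reported and 3 with array weights, an intensity trend, centring on medians or only probe sets at or above the median, where MYBS3 on Os.9166.1.S1_a_at passed with log2 fold changes of 0.43, 0.42, 0.45 and 0.42 (adjusted p 0.0137, 0.0338, 0.0392 and 0.0391 from limma). None (0) was called with a minimum of 2-fold, which the 0.65 of MYBS1 and the 0.51 of MYBS2 do not reach. With the replicate number as a block in the fit 0 were called, at log2 fold changes of 0.65 for MYBS1 (limma adjusted p = 0.1) and 0.51 for MYBS2 (limma adjusted p = 0.115), and 0 of all probe sets were called (6862 at an unadjusted p under 0.05, 8190 without the block). Deviations of same-numbered arrays correlated at 0.1377, -0.1471 and -0.2707 for replicates 1, 2 and 3. Those of arrays with different numbers ran from -0.3461 to 0.3532. So few arrays cannot decide whether the numbers pair the samples, and the labels do not say that they do.
With 1 array left out, 0 to 1 of the 6 probe sets were called. The log2 fold change ran from 0.55 to 0.75 for MYBS1, 0.49 to 0.54, 0.06 to 0.64 and -0.10 to 0.05 for MYBS2 on Os.3141.1.S1_at, Os.3141.2.S1_at and Os.52485.1.S1_at, and 0.36 to 0.47 and -0.12 to -0.01 for MYBS3 on Os.9166.1.S1_a_at and Os.48721.1.S1_at. Os.52485.1.S1_at, near 0 throughout, turned to 0.05 with array weights and, at 0.05 each, without *Osrdr1* replicate 2 or WT replicate 1. The difference in effect between Os.3141.1.S1_at and Os.3141.2.S1_at ran from -0.15 (without *Osrdr1* replicate 2) to 0.46, that between Os.3141.1.S1_at and Os.52485.1.S1_at from 0.44 to 0.63, and that within MYBS3 from 0.40 to 0.58.
Of the lists, sugar transport and sucrose cleavage moved most, with 1 call as reported, 7 with array weights, 5 with an intensity trend, 3 of 25 genes among probe sets at or above the median, 2 with centring on medians, 2 after another quantile normalization, and 0 with robust variance, the replicate block, the 2-fold minimum or any array left out. Array weights also gave 1 call each in sugar signalling (the gene listed as HXK4 and HXK8, -1.44), the gibberellin regulators (GID1, 0.38) and the other MYB factors (MPH1, 0.33), and the intensity trend 1 in the last (LHY, 0.43). Cold response had 0 calls under all alternatives run, and alpha-amylases under all but the use of probe sets at or above the median, which none of them reached, so that no value could be had. Higher calls among all probe sets were 901 against 290 lower, 2399 against 1344 with array weights and 1680 against 776 with an intensity trend, 1415 against 566 with the dimmer probe sets left out, 963 against 626 after another quantile normalization and 1041 against 180 with centring. The cause of these changes was not tested. Signals near the array medians, such as those of the amylases, limit what can be read.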

Other observations

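AMY1A was not alone on WT replicate 2. The next genes were picked, after their values were seen, from those highest on that array, so that they are higher there by choice and stand for no class of genes. RAB21, a dehydrin, had a log2 signal of 11.73 on WT replicate 2 and 6.06 to 8.00 on the other 5 arrays, and RAB16B, another dehydrin, had 9.43 and 5.14 to 5.79. EM, a late embryogenesis abundant protein gene, had 6.44 and 4.31 to 4.64, and the plasma membrane protein gene OsPM19L1 had 8.76 and 4.79 to 5.53. Of the endosperm storage genes, PROLM25 had 6.01 there and 4.51 to 4.80 elsewhere on its brighter probe set, and GLUA1, GLUA3 and GLUB4 stayed between 3.09 and 4.08 on all 6 arrays. What sets that sample apart was not tested.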
